A study of Mus musculus with 4 samples.

Results

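Amino acid transporters of the plasma membrane were followed across tumour and brain in sections of mouse brain. The 8 genes were taken by symbol from the features of the deposited tables, where each symbol named a single row: Slc7a11, Slc7a5, Slc3a2, Slc7a1, Slc7a3, Slc1a5, Slc1a4 and Slc38a2, 8 of 32589 features in all. A tumour was placed in the brain of each animal and later resected, and regrowth was compared between animals given a hydrogel (TREAT) and animals left without it (Vehicle). Each group had 2 capture areas at day 11, TREAT 1+4 and TREAT 2+3, and Vehicle 1+4 and Vehicle 2+3, and each area carried 2 pieces of tissue. All areas shared the tumour inoculation and the resection. The tumour is named as glioblastoma in the title of the series, and the labels do not name strain, age, tumour line or the make-up of the hydrogel. The design text states 4 animals for 8 tissue pieces, so the capture area was taken as the replicate, and p-values measure the spread between areas, which may be technical.

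Cells take up amino acids through families of carriers that differ in their cargo. Slc7a11 and Slc7a5 encode light chains that work only when bound to the heavy chain encoded by Slc3a2: with Slc7a11 the pair imports cystine, which feeds glutathione synthesis, in exchange for glutamate, and with Slc7a5 it imports leucine and other large neutral amino acids, in tumours and across the endothelium of the blood-brain barrier. Slc7a1 and Slc7a3 encode carriers of the cationic amino acids arginine, lysine and ornithine. Slc1a5 and Slc1a4 encode exchangers of small neutral amino acids, with glutamine among the cargo of the Slc1a5 product and serine and alanine among that of Slc1a4. Slc38a2 encodes a sodium-coupled importer of glutamine, alanine and other neutral amino acids. Several of these genes are known targets of Atf4, the transcription factor that is translated when amino acids run short and that binds, with partners of its family, sites called amino acid response elements.

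Promoter sequences are given for the members that hold the core of such an element, the letters TGATGCAA, because it is the known binding site of Atf4, whose own level is compared between the treatments below. The windows run from 250 bases before to 50 bases after an annotated start, were taken from RefSeq on GRCm38.p6, and existed for 5 of the 8 members, with 6 windows since Slc7a1 had 2. For Slc7a11, Slc3a2 and 1 of the 2 windows of Slc7a1, the start used lies inside the gene span given below, not at its outer end. The printed windows lie on the minus strand, at chr3:50443564-50443863 for Slc7a11 and at chr11:20332664-20332963 for Slc1a4. They are printed 5′ to 3′ along the gene, with matches to the core on either strand in capitals.
Slc7a11: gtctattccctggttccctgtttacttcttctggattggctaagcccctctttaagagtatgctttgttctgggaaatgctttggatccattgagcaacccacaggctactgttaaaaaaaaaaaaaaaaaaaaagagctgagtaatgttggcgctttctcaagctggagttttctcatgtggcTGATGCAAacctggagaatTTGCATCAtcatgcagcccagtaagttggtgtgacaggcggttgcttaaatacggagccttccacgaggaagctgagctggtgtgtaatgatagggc
Slc1a4: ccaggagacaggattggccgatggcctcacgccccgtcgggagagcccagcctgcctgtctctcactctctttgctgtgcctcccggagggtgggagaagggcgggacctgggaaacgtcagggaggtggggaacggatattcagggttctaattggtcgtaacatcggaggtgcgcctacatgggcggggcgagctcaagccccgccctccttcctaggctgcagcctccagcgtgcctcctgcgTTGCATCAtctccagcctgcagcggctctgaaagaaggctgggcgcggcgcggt
Slc7a11 held 2 matches that do not overlap, beginning at positions -66 (along the gene) and -47 (on the other strand, read as TTGCATCA), counted from 0 at the start used for the window. Slc1a4 held a single match on the other strand, beginning at position -4. No match was found in the windows of Slc3a2, Slc7a1 and Slc38a2. Of 32851 windows in the table, 0.895% held a match on either strand and 0.00609% held 2 or more. A match describes the letters in the window and does not show that a factor binds there.

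The assay hybridizes probe pairs to messages in fixed tissue and counts ligated pairs per barcoded spot as unique molecular identifiers (UMIs). Spots with at least 500 UMIs over tissue numbered 3349 and 3012 in TREAT and 3157 and 3485 in Vehicle, with medians of 14992 and 12248 UMIs in TREAT and 7381 and 8380 UMIs in Vehicle. Levels are given as CPM, the UMIs of a gene scaled by all UMIs of the same spots. They cannot be compared between genes, since probes differ. Between regions and areas, they depend on this scaling by totals. In tumour, 62.9% of genes were higher by CPM in both TREAT areas than in both Vehicle areas, and 14.5% were lower. Spots were clustered without the 8 members and without 40 other transporter genes, and clusters were called by marker genes. Tumour was clusters 0 and 6, which had 8 and 3 markers of proliferation or mesenchymal glioma among their 50 leading genes; cluster 0 lay almost wholly in Vehicle (1 and 5 spots in TREAT, 924 and 1247 in Vehicle) and cluster 6 almost wholly in TREAT (184 and 593 in TREAT, 0 and 11 in Vehicle). Tumour had 185 and 598 spots in TREAT and 924 and 1258 in Vehicle, and its summed CPM of 21 proliferation genes was 3434 and 2973 in TREAT and 3294 and 3310 in Vehicle, against 93.5 and 141.5 in TREAT brain and 113.3 and 188.1 in Vehicle brain. Brain was 9 clusters of cortex, hippocampus, striatum, thalamus, hypothalamus, midbrain and hindbrain, and white matter, with 1920 and 1330 spots in TREAT and 1606 and 1317 in Vehicle. A spot covers several cells, so fewer expressing cells and less RNA per cell cannot be told apart.

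The carriers split into a group high in tumour (Slc1a5, Slc7a1, Slc7a5 and, less so, Slc38a2), a group lower in tumour than in brain (Slc7a3, Slc1a4 and Slc7a11), and Slc3a2, which was near even. Slc1a5 (ENSMUSG00000001918, mm10 chromosome 7, 16781334 to 16798274) had 166.2 and 186.7 CPM in TREAT tumour and 153.5 and 169.9 CPM in Vehicle tumour, against 6.72 and 10.0 CPM in TREAT brain and 7.70 and 9.85 CPM in Vehicle brain. Every tumour value was above every brain value, and the log2 ratio of tumour over brain, with 1 CPM added to each side, was 4.16 ± 0.20 (mean ± SD, n = 4 areas). At least 1 Slc1a5 UMI was found in 99.5% and 99.8% of TREAT and 93.6% and 95.7% of Vehicle tumour spots, against 9.32% and 10.3% of TREAT and 4.42% and 5.62% of Vehicle brain spots, where spots are shallower.

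Slc7a1 (ENSMUSG00000041313, chromosome 5, 148327410 to 148399904) had 105.7 and 105.3 CPM in TREAT tumour and 139.1 and 132.6 CPM in Vehicle tumour, against 14.97 and 19.8 CPM in TREAT brain and 18.9 and 19.1 CPM in Vehicle brain. The 2 regions did not overlap, with a log2 ratio of 2.66 ± 0.21. Slc7a5 (ENSMUSG00000040010, chromosome 8, 121881146 to 121907686) had 242.8 and 308.8 CPM in TREAT tumour and 362.5 and 337.0 CPM in Vehicle tumour, against 101.6 and 80.7 CPM in TREAT brain and 92.9 and 82.8 CPM in Vehicle brain. Its log2 ratio was 1.78 ± 0.36, lowest in TREAT 1+4 at 1.25. Slc38a2 (ENSMUSG00000022462, chromosome 15, 96687392 to 96699728) had 87.5 and 74.0 CPM in TREAT tumour and 113.2 and 96.5 CPM in Vehicle tumour, against 47.0 and 55.4 CPM in TREAT brain and 61.0 and 36.4 CPM in Vehicle brain. Its regions did not overlap either, and its log2 ratio was 0.89 ± 0.40.

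Slc7a3 (ENSMUSG00000031297, chromosome X, 101079146 to 101090452), the other cationic carrier, was sparse and went the opposite way to Slc7a1. It had 1.81 and 1.02 CPM in TREAT tumour and 0.920 and 0.635 CPM in Vehicle tumour, from 11 to 22 UMIs per area, against 7.33 and 3.23 CPM in TREAT brain and 8.32 and 6.11 CPM in Vehicle brain, a log2 ratio of -1.76 ± 0.55. Slc1a4 (ENSMUSG00000020142, chromosome 11, 20302180 to 20332713), the relative of Slc1a5, had 21.5 and 23.6 CPM in TREAT tumour and 38.0 and 31.5 CPM in Vehicle tumour, against 40.5 and 42.0 CPM in TREAT brain and 39.4 and 43.3 CPM in Vehicle brain. Its log2 ratio was -0.55 ± 0.38 and ranged from -0.89 in TREAT 1+4 to -0.05 in Vehicle 1+4. Slc7a11 (ENSMUSG00000027737, chromosome 3, 50364936 to 50499087), the cystine carrier, had 16.6 and 13.4 CPM in TREAT tumour and 13.2 and 12.97 CPM in Vehicle tumour, against 23.2 and 16.8 CPM in TREAT brain and 22.8 and 17.3 CPM in Vehicle brain. It was below brain in all 4 areas, at a log2 ratio of -0.47 ± 0.19, and the 2 regions came close to each other. Slc3a2 (ENSMUSG00000010095, chromosome 19, 8706882 to 8723369), the shared heavy chain, had 142.1 and 216.0 CPM in TREAT tumour and 283.0 and 255.5 CPM in Vehicle tumour, against 153.0 and 163.8 CPM in TREAT brain and 185.1 and 195.1 CPM in Vehicle brain. Tumour was above brain in 3 of 4 areas, with TREAT 1+4 the exception at -0.11, and the mean log2 ratio of 0.32 ± 0.30 was close to its SD.

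**Figure D1:**
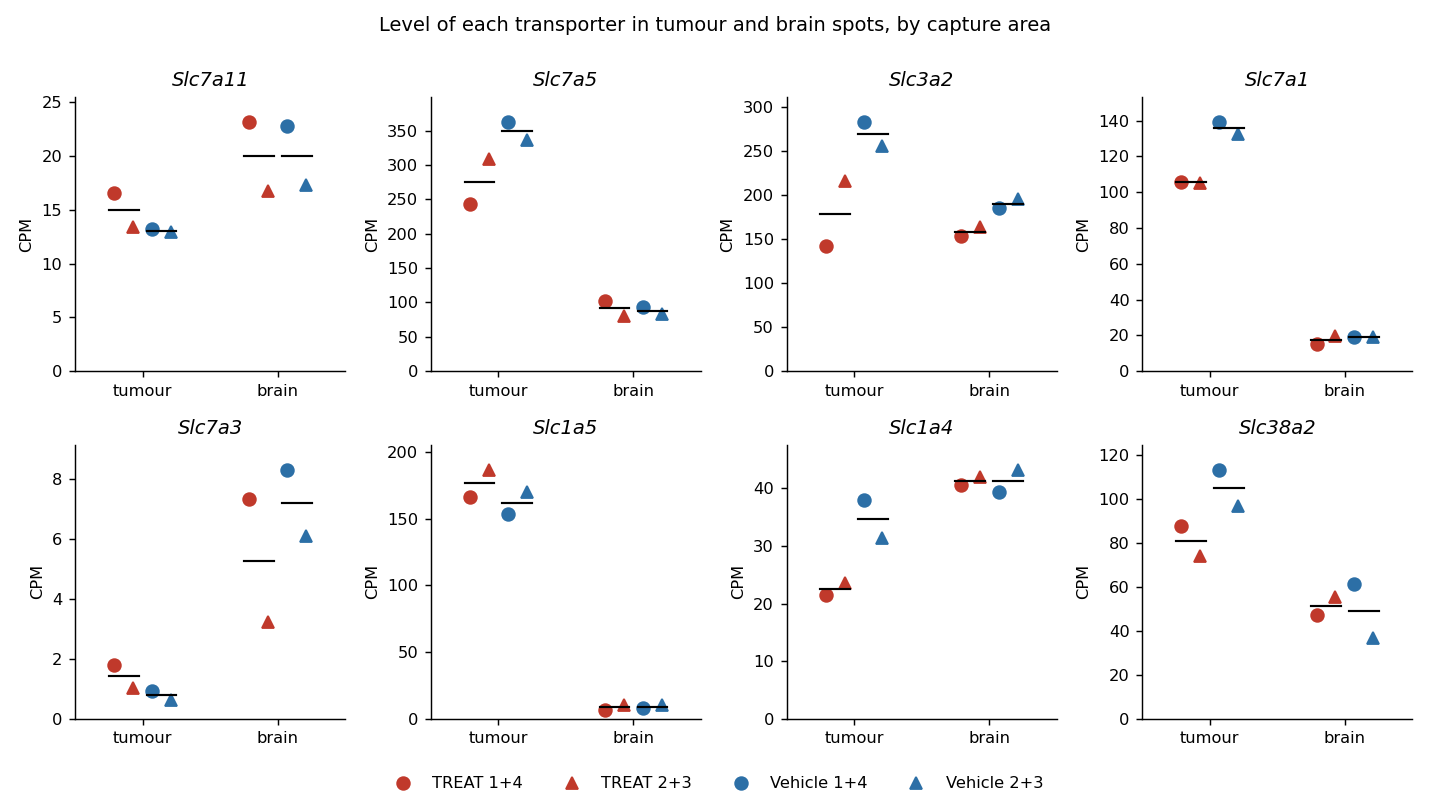
Level of each of the 8 transporters in CPM (vertical axes, each from 0) in tumour and in brain spots of the 4 capture areas (red, TREAT; blue, Vehicle; circles, 1+4; triangles, 2+3), with black lines at the group means. Slc1a5, Slc7a1, Slc7a5 and Slc38a2 lie higher in tumour than in brain in every area, and Slc7a3, Slc1a4 and Slc7a11 lie lower in tumour than in brain of the same area.

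Since regions were drawn from the same spots, these ratios carry no test and are read against all genes. Among 17152 genes of at least 1 CPM, 21.5% were above brain in all 4 areas with a mean log2 ratio of at least 1, 42.6% were above in all 4 areas and 36.0% were below in all 4, and the median ratio was 0.16. Of the 8 members, 3, 4 and 3 met these conditions. Of the 40 other transporters of the list, 38 reached 1 CPM, of which 2 met the first, 10 the second and 18 the third, with a median of -0.20. The 2 were Slc43a1 (2.32 ± 0.16), a carrier of large neutral amino acids, and Slc7a7 (1.12 ± 0.15), a light chain that also pairs with Slc3a2. At the other end stood the glutamate transporters of astrocytes, Slc1a2 (-6.68 ± 0.34) and Slc1a3 (-5.11 ± 0.68), and the neuronal proline transporter Slc6a7 (-5.23 ± 0.80). Slc1a5 and Slc7a1 stood above Slc43a1, so above each of the 38, in the plot of tumour over brain for every listed transporter.

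**Figure D2:**
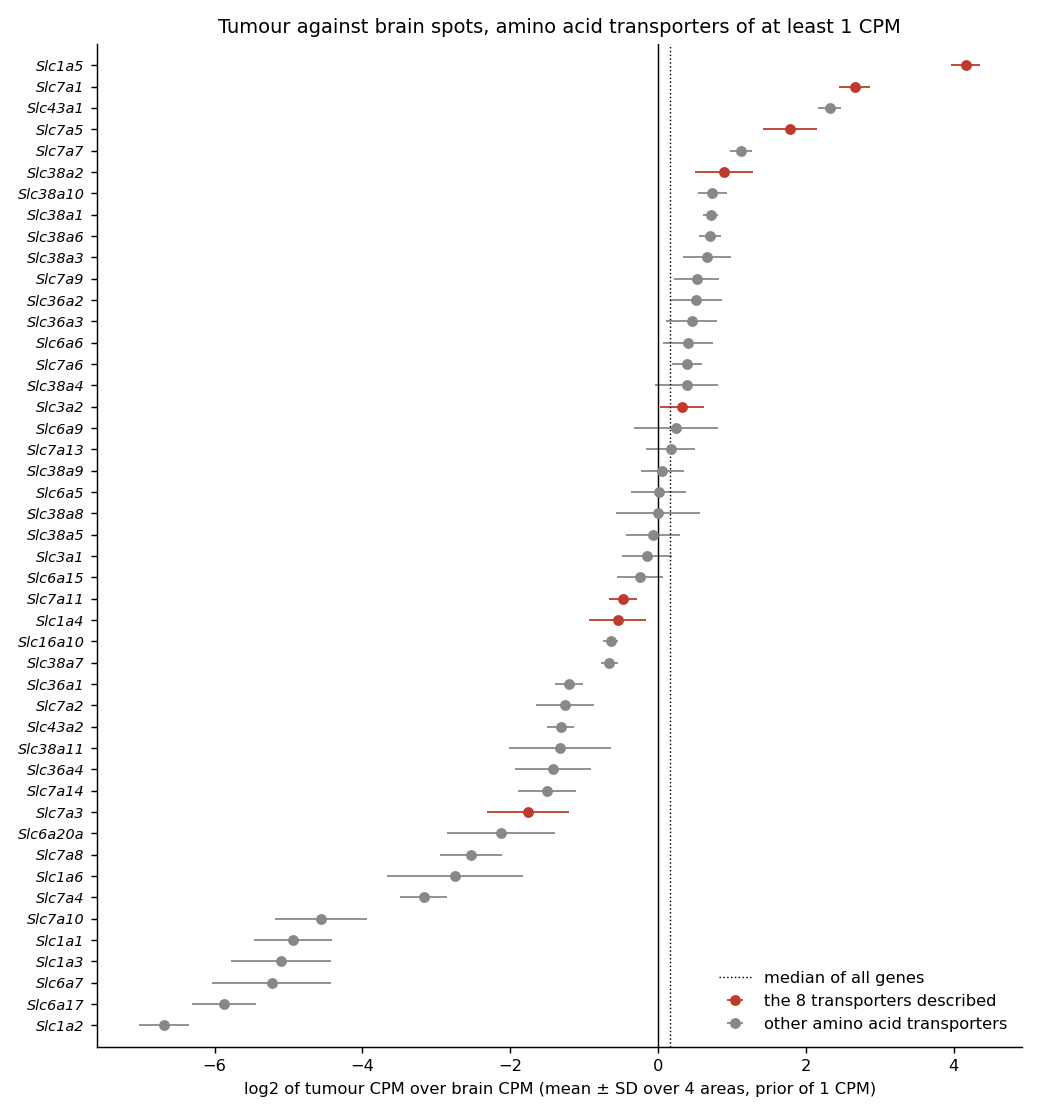
Log2 ratio of tumour CPM over brain CPM (horizontal axis, mean ± SD over 4 areas) for the 8 members (red) and the other listed amino acid transporters (grey) of at least 1 CPM, with a dotted line at the median of all genes, 0.16. The members spread over the range, with Slc1a5 (4.16) at the top and Slc7a3 (-1.76) in the lower part, above the astrocytic Slc1a2 (-6.68).

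Beyond tumour and pooled brain, the members differed in where they were high. Slc1a5 was highest in tumour (169.1 ± 13.7 CPM, n = 4 areas), then in cluster 14 (103.5 ± 41.5) and in reactive glia (56.5 ± 10.6); tumour lay above the highest area of cluster 14 (136.7 CPM), whereas cluster 14 and reactive glia overlapped. Cluster 14 was mixed, with 258 spots, Ttr and 5 immunoglobulin genes among its 10 leading genes, and 9 markers of choroid plexus, 5 of meninges and fibroblasts and 4 of plasma and B cells among its 50. At Leiden resolution 1.0 a choroid plexus cluster held 41 spots, beside a plasma and B cell cluster of 269, and with 1000 UMIs per spot these held 40 and 293, so levels of cluster 14 are not those of choroid plexus alone. Neuronal regions held little, such as 4.97 ± 2.01 CPM in cortex. Slc7a1 had the same order among these, with 120.7 ± 17.8 CPM in tumour, 59.8 ± 35.7 in cluster 14 and 35.9 ± 8.23 in reactive glia, of which tumour (lowest area 105.3 CPM) lay above cluster 14 (highest area 101.7 CPM) and the other two overlapped. Slc7a5 had 312.8 ± 51.5 CPM in tumour and 180.6 ± 72.5 in cluster 14, which overlapped, and 137.4 ± 9.94 in reactive glia, and its lowest mean was in striatum at 76.2 ± 1.94 (n = 2). Slc38a2 was not set apart in tumour, since tumour (92.8 ± 16.4 CPM), white matter (90.2 ± 11.5), ependyma (89.9 ± 25.4, n = 3) and cluster 14 (84.6 ± 20.5) overlapped, with striatum lowest at 29.7 ± 5.98 (n = 2).

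Slc7a11 had its highest mean in the mixed cluster 14, at 64.5 ± 33.9 CPM, with 108.0 and 73.0 CPM in TREAT and 46.4 and 30.5 CPM in Vehicle, and its lowest in tumour, at 14.04 ± 1.70, where the areas overlapped with those of hippocampus (17.5 ± 7.05). White matter (35.2 ± 5.39) came next among named regions and did not differ from cluster 14 beyond the spread. Slc7a3 was highest in hypothalamus (21.8 ± 4.53 CPM, n = 3), followed among named regions by midbrain and hindbrain (11.1 ± 6.34), whose highest area (17.3 CPM) passed the lowest hypothalamic area (16.7 CPM), and it had 1.096 ± 0.500 CPM in tumour and 0.885 ± 1.09 CPM in cluster 14. Slc1a4 was highest in ependyma (56.9 ± 7.67, n = 3) and hypothalamus (56.2 ± 12.7, n = 3), which overlapped each other and cortex (48.4 ± 3.25), and lowest in cluster 14 (18.7 ± 11.6) and tumour (28.6 ± 7.59). Slc3a2 ranged over named regions between 133.9 ± 36.5 CPM in striatum (n = 2) and 231.1 ± 6.70 in reactive glia.

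**Figure D3:**
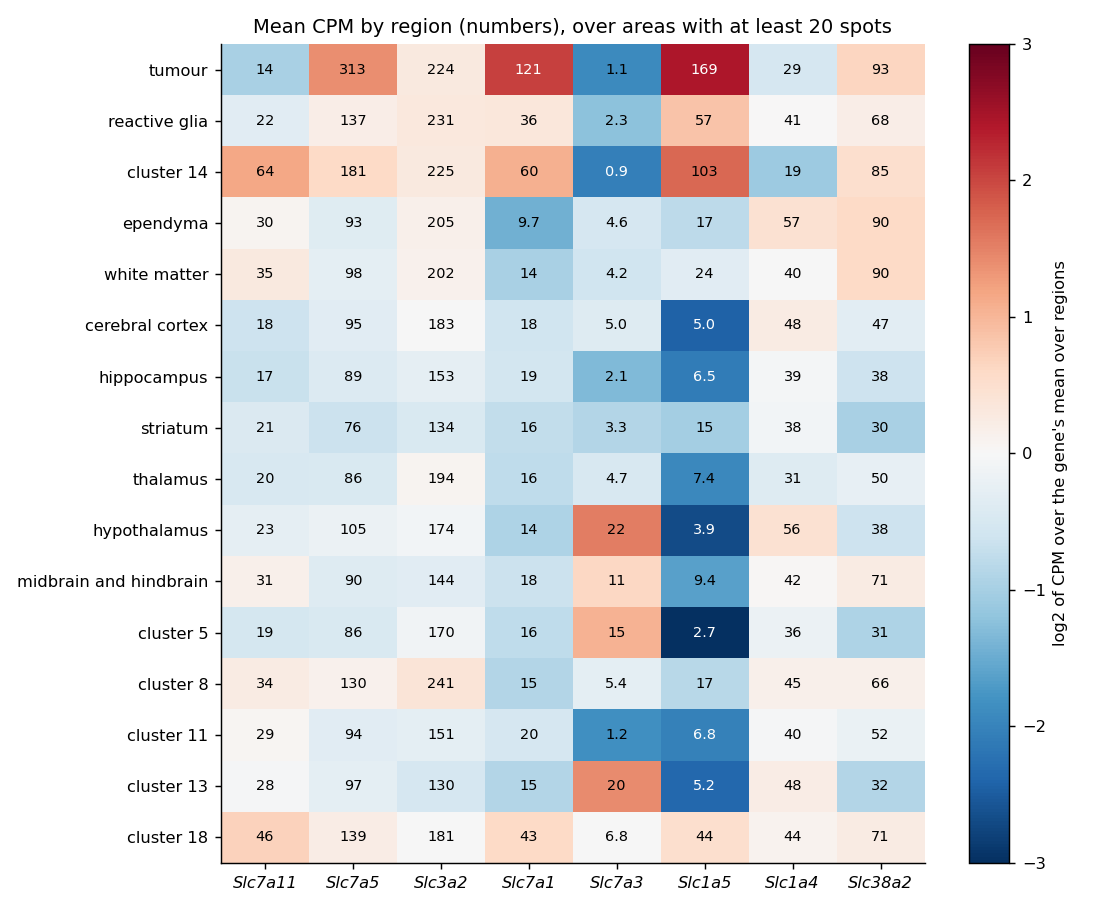
Mean CPM (printed in each cell) of the 8 transporters (columns) in 16 regions or unnamed clusters (rows), over areas with at least 20 spots, coloured by the log2 ratio to the gene's mean over rows (red, higher; blue, lower). Tumour is reddest for Slc1a5 (169), Slc7a1 (121) and Slc7a5 (313), while Slc7a3 peaks in hypothalamus (22) and Slc7a11 in cluster 14 (64), which mixes markers of choroid plexus, meninges and plasma cells.

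The border of the tumour was crossed in steps of spots, counting all tissue spots whatever their class. Slc7a5 was highest in the deepest bin of the tumour in all 4 areas. More than 5 steps inside it had 248.7 and 353.8 CPM in TREAT and 441.2 and 361.7 CPM in Vehicle; 1 to 2 steps inside it had 245.5 and 228.9 in TREAT and 300.3 and 305.1 in Vehicle; and more than 10 steps outside it had 100.2 and 83.5 in TREAT and 90.6 and 91.8 in Vehicle. TREAT 1+4, with 21 spots in the deepest bin, differed little between the bins inside the tumour. Slc1a5 kept 105.3 and 53.5 CPM in TREAT and 95.7 and 110.2 CPM in Vehicle at 1 to 2 steps outside, where proliferation genes summed to 2509 and 1312 CPM in TREAT and 2342 and 2616 CPM in Vehicle, and had 29.9 and 18.8 CPM in TREAT and 13.8 and 35.6 CPM in Vehicle at 3 to 5 steps outside. Slc7a1 behaved alike, with 62.4 and 32.5 CPM in TREAT and 54.0 and 91.3 CPM in Vehicle at 1 to 2 steps outside.

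Slc7a11 had its maximum outside the border in all 4 areas, within 5 steps of it in 3 of them. It had 16.6 and 10.8 CPM in TREAT and 13.7 and 10.7 CPM in Vehicle 1 to 2 steps inside, and 58.8 and 18.4 CPM in TREAT and 31.5 and 23.0 CPM in Vehicle 1 to 2 steps outside. At 3 to 5 steps outside the values were 39.4 and 19.1 in TREAT and 39.9 and 28.0 in Vehicle, and beyond 10 steps 23.4 and 21.7 in TREAT and 21.2 and 17.2 in Vehicle. TREAT 2+3 was the exception, with its highest value beyond 10 steps. The sum of 12 markers of meninges and fibroblasts stood high in the same bins, at 1629 and 955 CPM in TREAT and 1459 and 1082 CPM in Vehicle 1 to 2 steps outside, against 366 and 233 CPM in TREAT and 322 and 240 CPM in Vehicle 1 to 2 steps inside. Slc7a11 was also higher near the rim of the tissue, with 44.4 and 22.1 CPM in TREAT and 23.5 and 17.4 CPM in Vehicle within 2 steps of it, against 21.1 and 14.8 CPM in TREAT and 15.9 and 15.04 CPM in Vehicle further in. The same markers summed to 1458 and 1023 CPM in TREAT and 690 and 639 CPM in Vehicle within 2 steps, and to 487 and 362 CPM in TREAT and 329 and 315 CPM in Vehicle further in. The part of these cells in the result was not tested.

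**Figure D4:**
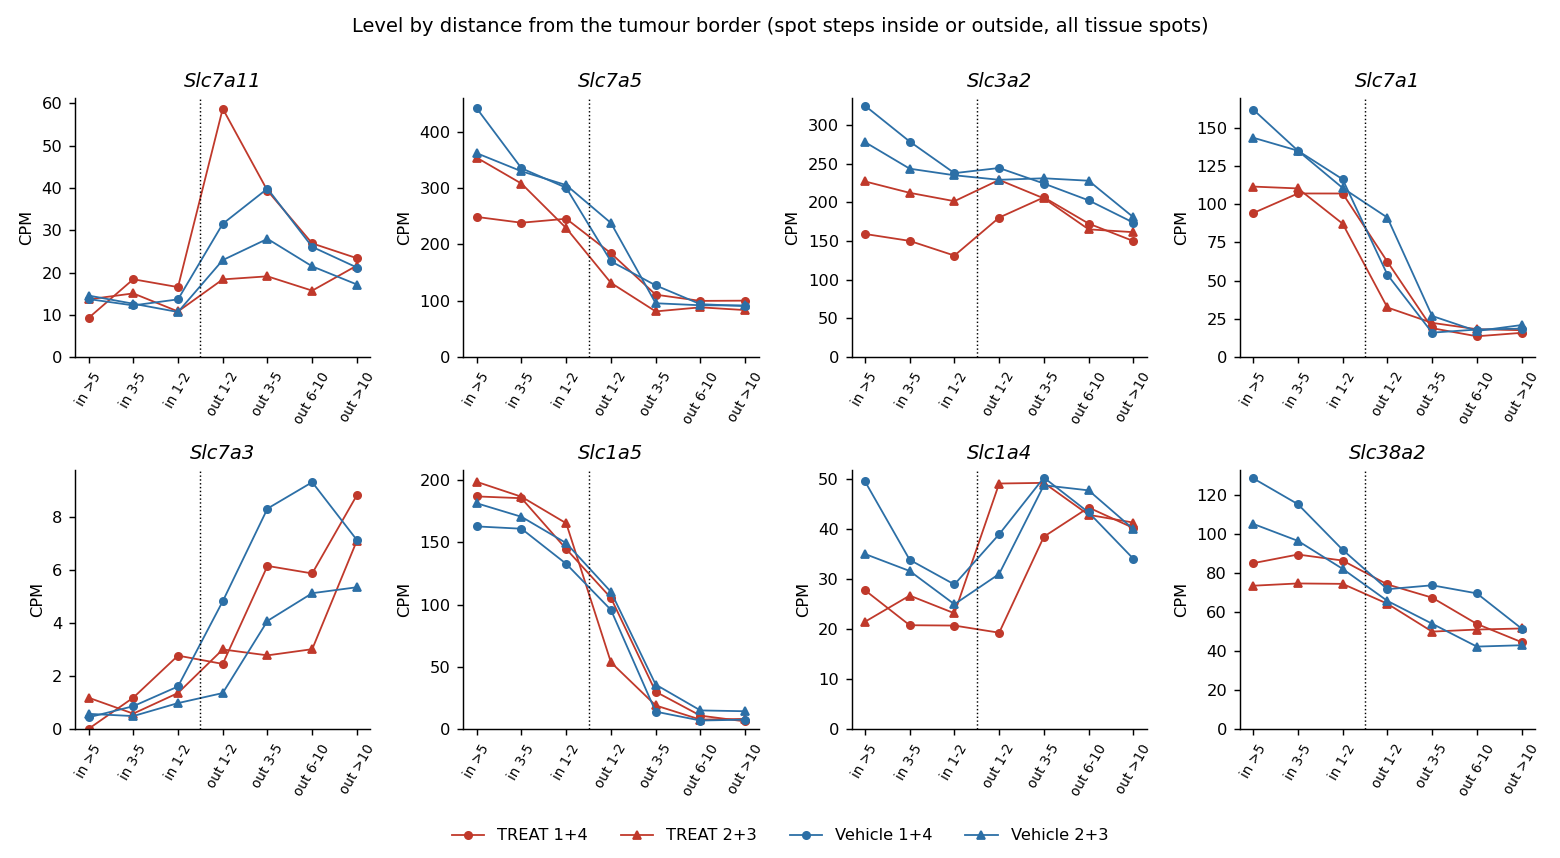
CPM of each transporter (vertical axes, each from 0) by distance from the tumour border in spot steps, from deep inside on the left to far outside on the right of the dotted line, with a line per capture area (red, TREAT; blue, Vehicle). Slc1a5, Slc7a1 and Slc7a5 drop across the border, whereas Slc7a11 is higher just outside it, up to 58.8 CPM in TREAT 1+4.

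In tumour spots, 5 of the 8 transporters were lower in TREAT than in Vehicle and none was higher, by edgeR's quasi-likelihood test over 19716 genes with Benjamini-Hochberg adjustment at 0.05. Slc1a4 was lower by a log2 change of -1.10 ± 0.20 (SE, adjusted p = 0.000245), Slc3a2 by -1.07 ± 0.19 (adjusted p = 0.000221), Slc38a2 by -0.86 ± 0.19 (adjusted p = 0.00118), Slc7a1 by -0.84 ± 0.18 (adjusted p = 0.000811) and Slc7a5 by -0.82 ± 0.18 (adjusted p = 0.00158). For each of these 5, both TREAT tumour values given above lay below both Vehicle tumour values. The calls include the shared heavy chain Slc3a2 and its leucine partner Slc7a5 but not its cystine partner Slc7a11 (-0.30 ± 0.23, adjusted p = 0.295). Slc1a5, the most tumour-rich of the 8, changed by -0.35 ± 0.17 (adjusted p = 0.113), with overlapping groups at 176.5 ± 14.5 CPM in TREAT and 161.7 ± 11.6 CPM in Vehicle (SD, n = 2 each). Slc7a3 changed by 0.26 ± 0.47 (adjusted p = 0.680). By CPM, which scales by totals, Slc7a11 was higher in both TREAT tumours, and its estimate and that of Slc1a5 turned positive under library totals (0.18 and 0.13) and with genes of at least 10 CPM (0.08 and 0.03). TREAT tumour lay in cluster 6 and Vehicle tumour in cluster 0, apart from the few spots given above, with medians of 35086 UMIs per spot in cluster 6 and 21566 in cluster 0; the part of depth in the changes was not tested. Some marker lists moved in this comparison too, beside 20.7% of all genes called lower and 13.2% called higher. Of 11 white matter markers, 8 were called higher (median 1.02), and they summed to 505.2 and 667.9 CPM in TREAT tumour and 291.0 and 322.0 CPM in Vehicle tumour. Of 10 choroid plexus markers, 6 were called higher (median 1.01), with sums of 174.9 and 118.9 CPM in TREAT and 61.3 and 44.1 CPM in Vehicle, and of 14 hypothalamic markers 6 were, with sums of 48.4 and 45.9 CPM in TREAT and 16.9 and 22.7 CPM in Vehicle. Not every brain list rose. The 12 neuron markers had 0 called higher and 1 lower (median -0.03). Their sums overlapped, at 139.0 and 190.0 CPM in TREAT and 174.2 and 129.1 CPM in Vehicle. The 12 cerebral cortex markers had 0 called higher and 1 lower (median 0.009). Of 18 mesenchymal glioma markers, 12 were called lower (median -0.59), though their sums overlapped, at 7951 and 5862 CPM in TREAT and 7579 and 7637 CPM in Vehicle, and of 21 proliferation genes 9 were called lower and 1 higher. By CPM, both TREAT areas lay below both Vehicle areas for 5 of the 18 mesenchymal markers and above for 4. For the 21 proliferation genes they lay below for 7 and above for 8. All genes gave 14.5% below and 62.9% above. No gene of these lists was at 0 in an area, and the part of these cells in the members' changes was not tested.

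Calls were common in this comparison, with 20.7% of all genes tested lower and 13.2% higher in TREAT tumour, and the split of directions depended on the scaling. Under TMM scaling the median log2 change of all genes was 0.05, whereas under library totals it was 0.53, and 8139 of the 9542 calls were then higher in TREAT, against 2604 of 6681. By CPM, 62.9% of the genes were higher in both TREAT areas than in both Vehicle areas and 14.5% were lower, and the 5 called members were among those lower. Relative to the median gene, a subtraction that cancels the scaling by construction and so is no check of it, the TMM changes were -1.15 for Slc1a4, -1.12 for Slc3a2, -0.91 for Slc38a2, -0.90 for Slc7a1, -0.88 for Slc7a5 and -0.40 for Slc1a5. Against the median of genes of at least 10 CPM they were -0.72 for Slc1a4, -0.69 for Slc3a2, -0.49 for Slc38a2, -0.47 for Slc7a1 and -0.45 for Slc7a5, and Slc1a5 stood at 0.02. Slc3a2 and Slc1a4 kept their call under library totals (adjusted p = 0.0220 and 0.0150) and under the 10 CPM filter (0.0374 and 0.0194). Slc7a5 and Slc38a2 lost it under library totals (0.110 and 0.0695), under the filter (0.0889 and 0.0543) and without Vehicle 1+4 (0.0578 and 0.0635), and Slc7a1 lost it under library totals (0.0640).

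**Figure D5:**
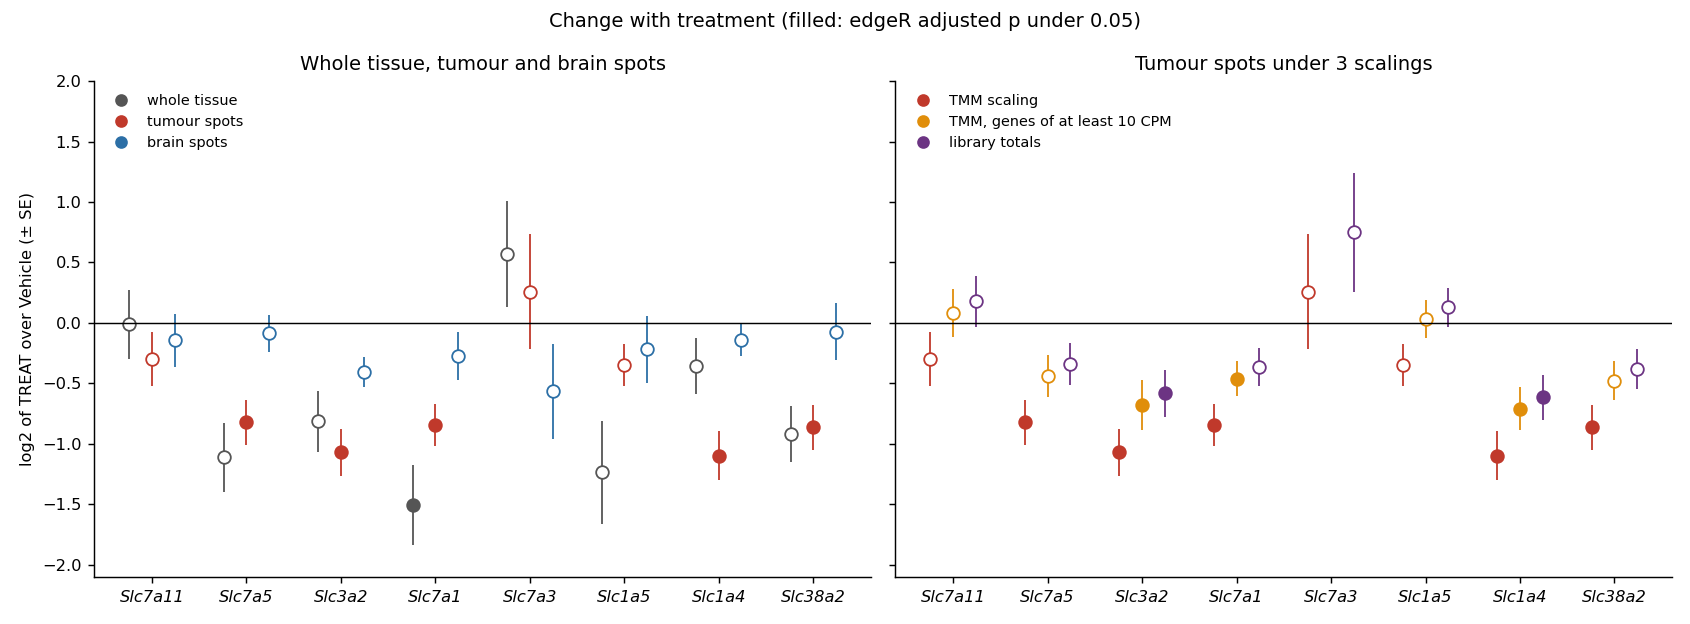
Log2 change of TREAT over Vehicle (vertical axis, ± SE, 2 areas per group) of the 8 transporters. Left, in whole tissue, tumour spots and brain spots, where the filled tumour points are the 5 calls between -0.82 and -1.10; right, in tumour spots under 3 scalings, where Slc3a2 and Slc1a4 stay filled under each.

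The tissue pieces overlapped between the groups for each of the 5 transporters called in tumour. Slc7a5 in tumour had 243.7 CPM in the right piece of TREAT 1+4, 296.1 and 313.5 CPM in the left and right pieces of TREAT 2+3, 436.2 and 284.8 CPM in those of Vehicle 1+4 and 370.2 and 279.7 CPM in those of Vehicle 2+3; the left piece of TREAT 1+4 held 3 tumour spots and gave no value. The right Vehicle pieces thus lay within the range of the TREAT pieces. Slc1a4 had 21.01, 39.8 and 17.6 CPM in the TREAT pieces and 49.8, 25.6, 32.5 and 29.7 CPM in the Vehicle pieces, which overlap as well. Slc3a2 had 139.2, 217.4 and 215.5 CPM in the TREAT pieces and 327.2, 236.4, 282.6 and 208.8 CPM in the Vehicle pieces, where a single Vehicle piece lay below the upper TREAT pieces. Slc7a1 had 105.1, 119.8 and 99.99 CPM in the TREAT pieces and 172.9, 103.5, 137.6 and 124.0 CPM in the Vehicle pieces, and Slc38a2 had 87.6, 118.7 and 57.5 CPM in the TREAT pieces and 127.3, 98.3, 96.0 and 97.4 CPM in the Vehicle pieces. The 12 endothelial markers, a cell type in which Slc7a5 and Slc3a2 are also known, summed to 319.1 and 496.9 CPM in TREAT tumour and 694.2 and 727.1 CPM in Vehicle tumour. Of the 12, 4 were called lower and 1 higher, beside 20.7% and 13.2% of all genes, and none was at 0. By CPM, both TREAT areas lay below both Vehicle areas for 3 of them and above for 4, beside 14.5% and 62.9% of all genes. The other 5 overlapped, so the fall of the sum was not shared by the whole list. Slc2a1, a glucose carrier that tumour cells also use, gave 140.6 and 251.0 CPM of the sum in TREAT and 440.5 and 466.2 CPM in Vehicle, and Cldn5, a tight junction gene of brain endothelium, 30.5 and 65.0 CPM in TREAT and 86.1 and 82.5 CPM in Vehicle. The part of endothelium in the change was not tested. The 12 macrophage markers summed to 505.1 and 369.9 CPM in TREAT tumour and 386.5 and 499.9 CPM in Vehicle tumour, and overlapped. By the edgeR test 3 of the 12 were called lower and 0 higher (median -0.38), beside 20.7% and 13.2% of all genes. By CPM, both TREAT areas lay below both Vehicle areas for 1 macrophage marker and above for 5, beside 14.5% and 62.9% of all genes.

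In brain spots no member passed the test. All 8 estimates were below 0, from -0.57 ± 0.39 for Slc7a3 to -0.07 ± 0.24 for Slc38a2, and the lowest adjusted p was 0.174, for Slc3a2 (-0.40 ± 0.12), whose TREAT brain values were both below its Vehicle brain values. Of 18105 genes tested, 0.0166% (3 genes) were called higher and 0.0% lower, against 3541 at an unadjusted p under 0.05 and 396 calls by DESeq2. None of the 6 members with a DESeq2 adjusted p was among those. The areas cut through different structures, with 350 and 17 hypothalamic spots in TREAT and 80 and 290 in Vehicle, and 211 and 169 striatal spots in TREAT and 0 and 4 in Vehicle. Their part in the brain values was not tested.

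Whether the change differed between tumour and brain was tested as an interaction on the 8 area-by-region sums. The change in tumour was more negative than in brain for Slc1a4, by -0.98 ± 0.23 (edgeR adjusted p = 0.0256), and for Slc38a2, by -0.85 ± 0.23 (adjusted p = 0.0399), against 4.67% of 19988 genes lower and 1.49% higher. Slc7a5 (-0.76 ± 0.23, adjusted p = 0.0694) and Slc3a2 (-0.71 ± 0.23, adjusted p = 0.0810) did not pass. Both calls were lost under library totals, where 119 of 138 calls were higher against 298 of 1232, under the 10 CPM filter, DESeq2, a minimum of 1000 UMIs per spot, both other cluster resolutions and a brain that included clusters 8 and 11. Both were also lost without Vehicle 1+4 (adjusted p = 0.419 for Slc1a4 and 0.309 for Slc38a2) and without Vehicle 2+3 (0.113 and 0.570), and that of Slc38a2 without TREAT 2+3 (0.137).

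Over whole tissue, Slc7a1 was the single member called, at -1.50 ± 0.33 (edgeR adjusted p = 0.0418), with 28.3 and 56.0 CPM in TREAT and 90.0 and 100.1 CPM in Vehicle; 5.67% of 20265 genes were called lower and 1.11% higher. Under library totals 2920 of 3605 calls were higher, against 224 of 1373 here. Slc38a2 (-0.91 ± 0.23, adjusted p = 0.0504), Slc7a5 (-1.11 ± 0.28, 0.0519), Slc3a2 (-0.81 ± 0.25, 0.0703) and Slc1a5 (-1.23 ± 0.43, 0.0847) had TREAT values below Vehicle values in both areas without passing. These sums weigh tumour differently in the groups, with 185 and 598 of 3349 and 3012 spots in TREAT and 924 and 1258 of 3157 and 3485 spots in Vehicle being tumour. The part of tumour share in the whole-tissue changes was not tested. Without either Vehicle area, or without TREAT 1+4, no member was called. Without TREAT 2+3, 5 members were.

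Of 20 genes for the response and for serine, glycine, proline and asparagine synthesis, 14 were called lower and none higher in TREAT tumour, with a median change of -0.79 against 0.05 for all genes tested and beside 20.7% of all genes lower. By CPM, both TREAT areas lay above both Vehicle areas for 3 of the 20, below for 11, and overlapped for 6. All genes gave 62.9% above and 14.5% below. Of the 14 called lower, 11 were below by CPM and 3 overlapped. They included Atf5 (-2.88, adjusted p = 2.47e-09), a relative of Atf4, Chac1 (-1.52, 2.49e-06), which degrades glutathione, Shmt2 (-1.56, 3.40e-06), the mitochondrial enzyme that makes glycine from serine, and Sesn2 (-1.35, 7.60e-06), a leucine sensor. Atf4 itself fell by 0.98 on the log2 scale (adjusted p = 0.000352). Tumour was also above brain in all 4 areas for 17 of these 20 genes, and by a log2 ratio of at least 1 for 15, beside 42.6% and 21.5% of all genes. Of 12 aminoacyl-tRNA synthetases, which charge tRNAs with amino acids, 7 were called lower and none higher, led by Aars (-0.91, 0.000599), Sars (-0.75, 0.00350), Nars (-0.69, 0.0063) and Cars (-0.60, 0.0132). These 4 were also below Vehicle in both TREAT areas by CPM, whereas the other 3 calls, made under TMM scaling, overlapped by CPM, which scales by totals. Another 3 synthetases, none of them called, had both TREAT areas above both Vehicle areas by CPM. The 12 synthetases thus had 4 below and 3 above, beside 14.5% and 62.9% of all genes. Tumour was above brain in all 4 areas for 11 of the 12, beside 42.6% of all genes.

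The glutathione and Nrf2 target genes, some of which work downstream of cystine uptake by Slc7a11, numbered 13, of which 2 were called lower, Srxn1 (-1.37, adjusted p = 2.46e-05) and Nfe2l2 (-0.55, 0.0346), and none higher, with a median of -0.13, a share below the 20.7% of all genes. By CPM, Srxn1 was lower in both TREAT areas and Nfe2l2 overlapped, while 8 of the 13 were higher in both TREAT areas, near the 62.9% of all genes. Over whole tissue, 10 genes of the response and synthesis list, 0 synthetases and 1 of the glutathione and Nrf2 list were lower, with medians of -1.08, -0.69 and -0.30 against 0.13 for all genes and beside 5.67% of all genes called lower, to which 1 of 13 is near. In brain no gene of these lists was called. In the interaction 8 of the response and synthesis list were called lower, with a median of -0.68 against -0.13 for all genes and beside 4.67% of all genes. With genes of at least 10 CPM, and at resolution 0.3, the interaction called 0 genes, so no interaction call of this paragraph was kept there. Under library totals it called 19 genes lower and 119 higher. Of the 40 other transporters, 39 were tested in tumour, of which 4 were called lower and 4 higher, with a median of 0.09, both shares below the 20.7% and 13.2% of all genes. By CPM, both TREAT areas lay above both Vehicle areas for 30 of the 39, below for 3, and overlapped for 6. All genes gave 62.9% above and 14.5% below. Of the 4 called lower, 3 were below by CPM and 1 overlapped. Those called lower were the glycine transporter Slc6a9 (-1.04, 0.000151), the taurine transporter Slc6a6 (-0.64, 0.00757), the glutamine transporter Slc38a3 (-0.66, 0.00859) and Slc7a8 (-0.94, 0.0252), another light chain of Slc3a2. Those called higher were Slc6a5 (1.48, 0.0126), Slc6a7 (1.05, 0.0168), Slc36a3 (1.195, 0.0299) and Slc38a4 (1.07, 0.0353). In the interaction 2 of the 40 were called lower, Slc6a6 and Slc6a9, and 3 higher, Slc1a6, Slc6a7 and Slc7a10, with a median of 0.13, beside 4.67% and 1.49% of all genes. None of the 40 tested over whole tissue, or of the 37 tested in brain, was called.

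Within tumour, spots with more of the amino acid response list tended to have more of the carriers. Pearson's r across tumour spots of an area, with spots of the same library and on scaled values, was 0.26 to 0.50 for Slc7a5 over the 4 areas, 0.20 to 0.42 for Slc1a5, 0.15 to 0.42 for Slc38a2, 0.17 to 0.41 for Slc7a1, 0.22 to 0.34 for Slc3a2, 0.17 to 0.32 for Slc1a4 and 0.05 to 0.25 for Slc7a11. For Slc7a3, with few UMIs, it was -0.13 to 0.02. Across brain spots the same r lay between -0.08 and 0.15 for all 8. Pairs of members were weakly related in tumour, between -0.11 and 0.30, with Slc3a2 and Slc7a5 at 0.11 to 0.23 and Slc3a2 and Slc7a11 at 0.03 to 0.10. These values are descriptions of spots that share depth and library.

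Likeness of profile to each member was ranked across 55 region-by-area sums by Pearson's r of log2 CPM. Only genes with a mean CPM at or above that of the member were ranked, so the candidates differed between members. The most alike of the candidates were Emp3 (0.95), Tpt1 (0.94) and Myl12a (0.94) for Slc1a5, Rtcb (0.92), Zfp622 (0.92) and Tmem167 (0.91) for Slc7a1, and Psma7 (0.88), Eef1b2 (0.88) and Eif3i (0.88) for Slc7a5. Lower values of r, each among the member's own candidates, were found for Slc7a3 (AW551984 0.80, Rac3 0.78 and Magel2 0.77), Slc38a2 (Eci1 0.79, Pttg1 0.78 and Psat1 0.77), Slc3a2 (Irf2bp2 0.74, Laptm4a 0.73 and Pdia3 0.71), Slc7a11 (Col1a2 0.71 and Enpp2 0.68) and Slc1a4 (Nacad 0.66, Apc2 0.66 and Rasa3 0.66). The likeness is across sums that share libraries.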

How the data were processed

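UMI counts per gene and spot of 4 formalin-fixed sections were deposited by the authors as raw counts, and the submitters' processing notes name Space Ranger 2.1.1, mm10, Seurat and R 4.4.1. Of 32589 features, 304 marked as deprecated were left out and 20457 with counts were used; gene positions come from GRCm38.p6 (mm10). Tissue spots of at least 500 UMIs were scaled to 10000, logged and clustered (2000 variable genes without 48 transporters, 30 components, 15 neighbours, Leiden resolution 0.6; Python 3.11.15 with scanpy 1.11.5, igraph 0.11.9 and leidenalg 0.10.2). A cluster took the class with the most markers, at least 3, among its 50 leading genes. Clusters 8 and 11, whose 10 leading genes held more markers of another class, were taken out of brain after the data were seen. Array barcodes are fixed, and 1825 were used in all areas. Doublets were not called, as spots hold several cells.

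Counts were summed per area, as spots are not replicates, and TREAT was compared with Vehicle by edgeR 4.0.16 (R 4.3.3; quasi-likelihood F-test, TMM, filterByExpr, Benjamini-Hochberg at 0.05). The interaction had the area as a block. Alternatives were DESeq2 1.42.0, other filters, scalings, resolutions and region definitions, leave-one-out fits and a block for the label numbers. The fits were tested on simulated data. Regions had to hold 20 spots in an area. Named genes were all members, up to 6 other transporters per direction and up to 4 genes per other list with the smallest p in tumour, and the 3 genes most like each member, of which 1 is not reported here; Atf4, Slc2a1 and Cldn5, the other transporters called in the interaction, and Slc43a1, Slc7a7, Slc1a2, Slc1a3 and Slc6a7 for their tumour over brain ratio, were named after their values were seen. Genes most like a member were sought only among genes of the same mean CPM or more. The members and lists were chosen with earlier results of these data known.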

Additional observations from a re-analysis of the deposited data

Results flagged for a closer look

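The change with treatment differed between tumour and brain for 2 members by the interaction test given above: Slc1a4, at -0.98 on the log2 scale, and Slc38a2, at -0.85. Slc1a4 passed in 4 and Slc38a2 in 3 of 13 settings.

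Spots off tissue, which no comparison used, carried signal of Slc7a11 above that of tissue in all 4 areas, with 144.8 and 34.1 CPM in TREAT and 61.4 and 37.1 CPM in Vehicle off tissue, against 26.1 and 16.9 CPM in TREAT and 18.5 and 15.6 CPM in Vehicle on tissue. The mean log2 ratio of off over on tissue was 1.62 ± 0.64 (SD, n = 4). Off-tissue spots held 3.83% and 5.38% of the UMIs in TREAT and 5.40% and 4.64% in Vehicle. The meningeal and fibroblast markers summed to 6100 and 4259 CPM in TREAT and 2846 and 2128 CPM in Vehicle at 1 step off the tissue, and their part was not tested. Slc3a2 was also above tissue off tissue in all 4 areas, by a mean log2 ratio of 0.25 ± 0.13, and none of the other 6 members was.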

How the results depend on the processing

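Which genes passed depended on the settings, while tumour over brain kept its direction for all 8 members over 13 settings, from 3.94 to 4.30 for Slc1a5 and from -0.59 to -0.22 for Slc7a11. The 13 include the main setting and tumour drawn by at least 3 proliferation markers, which held the same spots. They also include leaving out each area, which could not turn a member whose ratios had the same sign in every area. Over whole tissue, 1373 genes and 1 member were called, against 3974 and 5 with DESeq2, 0 and 0 with genes of at least 10 CPM (4117 genes at an unadjusted p under 0.05) and 3605 genes with library totals. Leaving out each area gave 7 to 4770 genes and 0 to 5 members, lowest without Vehicle 1+4 (7) and without Vehicle 2+3 (14). In tumour, 6681 genes and 5 members were called, against 4181 genes with DESeq2, 2453 and 3 with genes of at least 10 CPM, and 2 members with library totals. Leaving out each area gave 2590 to 6729 genes and 3 to 5 members, lowest without Vehicle 1+4. In brain, 3 genes were called, against 396 with DESeq2, 18 with no filter, 7 with 1000 UMIs per spot, 10 at resolution 1.0, and 0 to 239 without each area (0 without either Vehicle area, with 2348 and 2736 genes at an unadjusted p under 0.05). The interaction called 1232 genes and 2 members, against 508 with DESeq2, 0 with genes of at least 10 CPM (2701 unadjusted), 138 with library totals, 267 with 1000 UMIs, 0 at resolution 0.3 (3610 unadjusted), 560 at resolution 1.0 and 541 with clusters 8 and 11 in brain, each with 0 members. Without each area it called 0 to 1796 genes and 0 to 3 members, with none without Vehicle 1+4 (2116 unadjusted).

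The label numbers shared by the groups did not show that they pair areas: deviations of same-numbered areas correlated at 0.47 over whole tissue, -0.16 in tumour and -0.19 in brain. As a replicate block they gave 9100 genes and 5 members over whole tissue, 7003 genes in tumour and 5 in brain. Crossed, the block gave 1857 genes and 3 members over whole tissue, 6495 genes in tumour and 48 in brain.

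Uncalled estimates near 0 turned their sign. With genes of at least 10 CPM, Slc7a11 was at 0.27 over whole tissue, 0.081 in tumour and 0.035 in the interaction, Slc1a5 at 0.031 in tumour and 0.045 in the interaction, and Slc7a5 and Slc38a2 at 0.018 and 0.033 in brain. With library totals these were 0.33, 0.18 and 0.21 for Slc7a11, 0.13 and 0.22 for Slc1a5, 0.055 for Slc7a5 and 0.067 for Slc38a2. With 1000 UMIs per spot, Slc7a3 was at -0.0011 in tumour, and in the interaction Slc7a11 was at 0.16 and Slc1a5 at 0.034. In the interaction, Slc7a11 and Slc1a5 were at 0.25 and 0.22 at resolution 0.3, 0.094 and 0.37 at resolution 1.0, and 0.10 and 0.060 with clusters 8 and 11 in brain. With tumour drawn by a proliferation sum, Slc7a11 was at 0.12. Leaving out each area, ranges that crossed 0 were -0.33 to 0.25 for Slc7a11 and -0.00023 to 1.18 for Slc7a3 over whole tissue, and -0.099 to 0.79 for Slc7a3 in tumour. In brain they were -0.38 to 0.062 for Slc7a11, -0.24 to 0.068 for Slc7a5, -0.52 to 0.077 for Slc1a5 and -0.42 to 0.33 for Slc38a2. In the interaction they were -0.26 to 0.20 for Slc7a11 and -0.21 to 0.097 for Slc1a5. The cause was not tested. Few UMIs limit Slc7a3, and 2 areas a group limit every test.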
